A study of Saccharomyces cerevisiae Sigma1278b with 62 samples.

Results

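The genes described here let budding yeast live on glycerol, ethanol, acetate or lactate when glucose is absent. They are GUT1 (YHL032C), GUT2 (YIL155C), STL1 (YDR536W), FBP1 (YLR377C), PCK1 (YKR097W), ICL1 (YER065C), MLS1 (YNL117W), ADH2 (YMR303C), ACS1 (YAL054C) and JEN1 (YKL217W), chosen by name, and all 10 had an entry in each table of counts, out of 5563 ORFs listed in any of them. Glycerol enters the cell through Stl1, a proton symporter, is phosphorylated by the glycerol kinase Gut1, and is oxidized at the inner mitochondrial membrane by the glycerol-3-phosphate dehydrogenase Gut2. Ethanol is oxidized by the alcohol dehydrogenase Adh2 and acetate is activated by the acetyl-CoA synthetase Acs1. The isocitrate lyase Icl1 and the malate synthase Mls1 carry the glyoxylate cycle, which turns acetyl groups into precursors of sugar. The PEP carboxykinase Pck1 and the fructose-1,6-bisphosphatase Fbp1 are the enzymes particular to gluconeogenesis, and Jen1 carries lactate and pyruvate across the plasma membrane. Most of these genes are textbook targets of glucose repression, under which their transcription is shut off while glucose is present.

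The strains were Saccharomyces cerevisiae of the Sigma1278b background, and each was profiled by ribosome footprints (FP), the mRNA fragments protected by translating ribosomes, and by total RNA from the same extracts. In the glycerol experiment, asc1-M1X and WT cells were taken from rich medium with 3% glycerol (YPAG) after a shift from glucose. In the main experiment, asc1-M1X, asc1-Null, asc1-D109Y, rpl23b-Null, rpp1a-Null and WT were grown in rich medium with 2% glucose (YPAD). In asc1-M1X the start codon of ASC1, which encodes a protein of the small ribosomal subunit, is replaced by a stop codon, so that the protein is lost while the intronic snoRNA snR24 is kept. The asc1-Null strain lacks the whole gene. The asc1-D109Y and asc1-DE strains carry substitutions in Asc1 that, in the study, lowered its co-sedimentation with ribosomes. After crosslinking, both proteins were still found with polysomes. The rpl23b-Null, rpp1a-Null, rps0b-Null and rps16b-Null strains each lack a single paralog of another ribosomal protein. Further glucose cultures came from an experiment with polyA-tailed libraries (asc1-DE and WT) and from the deletion collection (rps0b-Null, rps16b-Null and a WT of their own strain number). Further glucose libraries were made from total RNA depleted of rRNA by Ribo-Zero (asc1-M1X and WT). These are paired with the FP libraries of the main experiment and are not shown to come from separate cultures. All cells were grown at 30 °C and treated with cycloheximide before harvest. Each group had 2 FP and 2 total RNA libraries (Ribo-Zero: 2 total RNA libraries). The replicates 1 and 2 of each mutant of the main experiment were different isolates. The glycerol experiment held no glucose library, so the medium and the experiment cannot be told apart in any comparison between media.

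The 26 FP libraries held 5091809 to 15322986 reads on nuclear ORFs and the 30 total RNA libraries 1713047 to 8407876. Levels are given as RPM, the reads of a gene scaled to a total of 1000000 reads per library, and between genes as RPM per kilobase of counted coding sequence. ASC1 footprints, which check the labels of asc1-M1X, lay between 14.4 and 28.6 RPM in its FP libraries and between 960 and 4131 RPM in those of WT. The deleted paralogs were checked in the same way in their strains, and the D109Y and DE alleles could not be checked from counts. In the titles the mutant Ribo-Zero libraries are called asc1-Null but their column names and strain numbers are those of asc1-M1X. They held 1453 and 1543 RPM of ASC1 RNA, against 10.9 and 20.8 RPM in the asc1-Null total RNA of the main experiment, and are treated here as asc1-M1X.

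In glycerol, all 10 genes stood far above their levels in glucose, in both strains and in both kinds of library. In WT they took 6.87% and 6.10% of all FP reads in glycerol, against 0.00558% and 0.0053% in glucose. Their share of WT total RNA reads was 2.99% and 2.94% in glycerol, against 0.0248% and 0.0225% in glucose. In asc1-M1X they took 5.90% and 5.20% of FP reads in glycerol, against 0.0113% and 0.0117% in glucose, and 2.16% and 1.83% of total RNA reads in glycerol, against 0.0351% and 0.0316% in glucose. The 95% Wilson intervals of these shares, which cover counting error only, reached at most 6.89% for the highest and 0.00581% for the lowest. In a bulk culture, more cells that express a gene and more RNA per cell cannot be told apart.

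**Figure D1:**
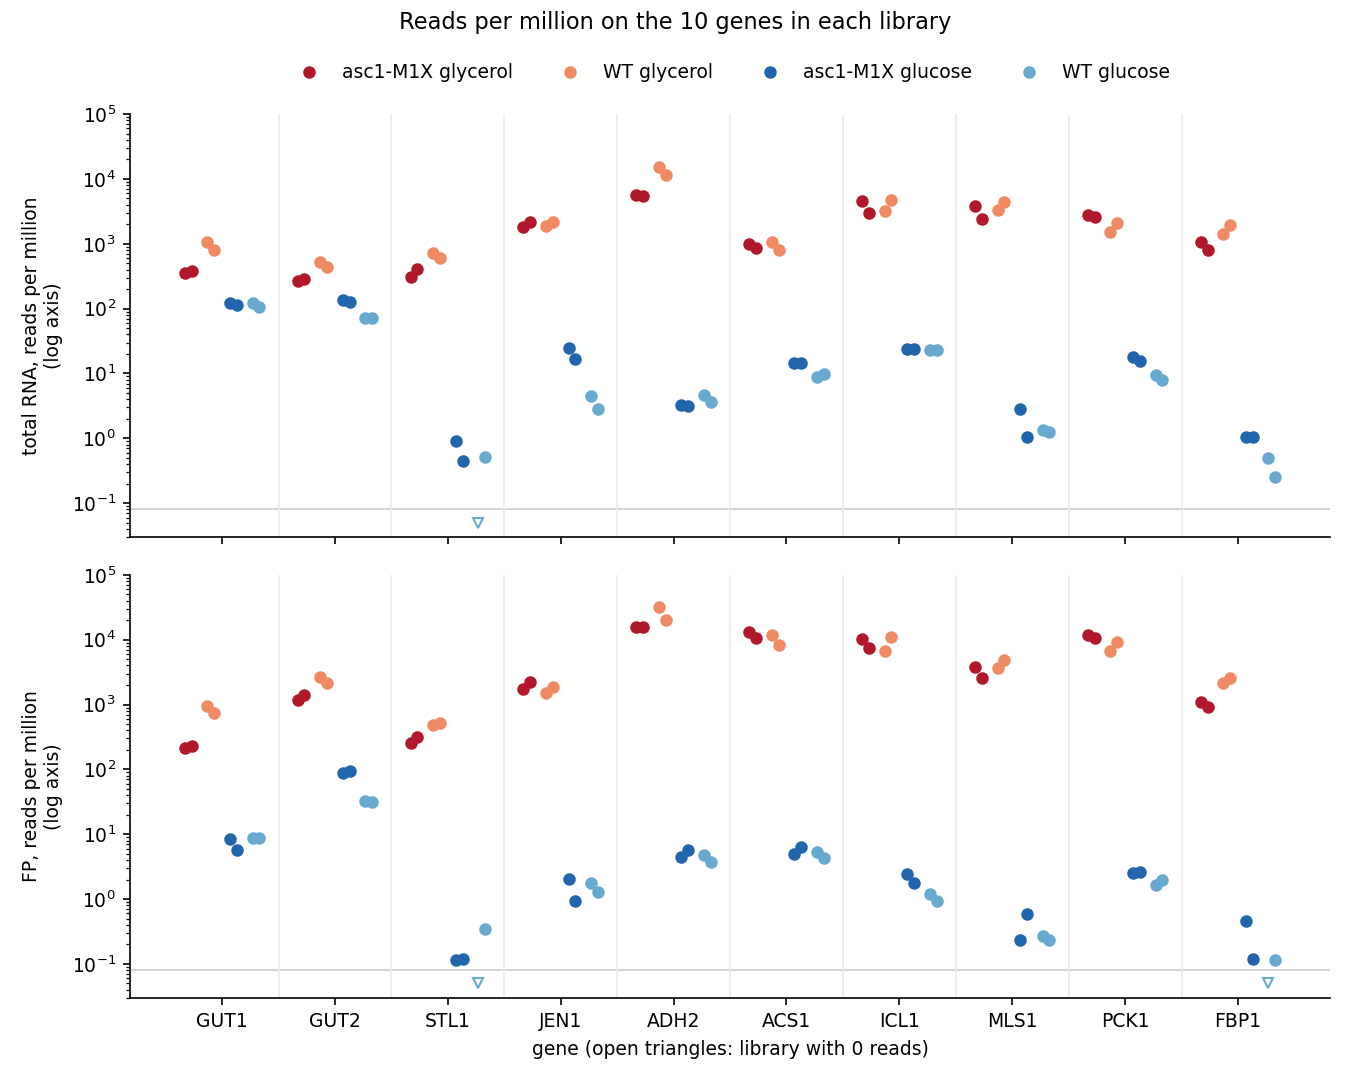
RPM on each of the 10 genes (log axis) in total RNA (top) and FP (bottom) libraries of asc1-M1X and WT, in glycerol and in the glucose of the main experiment. Each point is a library, and open triangles are libraries with 0 reads. The glycerol libraries of each gene lie above all its glucose libraries in the plot, with the smallest distance for GUT2 total RNA, at 266 to 530 RPM in glycerol and 70.6 to 138 RPM in glucose.

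Of the 10 genes, 10 were called higher in glycerol in WT total RNA (42.8% of all genes tested were called higher), and 10 in asc1-M1X total RNA (42.1% of all genes). In FP, 10 were called higher in WT (41.6% of all genes) and 10 in asc1-M1X (41.1% of all genes). Calls are at an adjusted p under 0.05 in the quasi-likelihood test of edgeR. The median log2 change of the 10 genes in WT was 8.52 in total RNA and 11.58 in FP, beside −0.03 and 0.05 over all genes tested, and in asc1-M1X it was 7.36 in total RNA and 11.15 in FP, beside −0.03 and 0.04. A gene entered the test with 128 reads summed over the libraries of its type. On the glucose libraries alone, 6 of the 10 reached that number in total RNA and 4 in FP. The others (ADH2, FBP1, MLS1 and STL1 in total RNA, and FBP1, ICL1, JEN1, MLS1, PCK1 and STL1 in FP) entered through their glycerol reads and could hardly have been tested without being called, so the counts above describe these libraries and carry no further weight.

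The glycerol uptake and oxidation genes differed widely in how far they were expressed in glucose. STL1 was nearly silent there. Its FP level was 481 and 514 RPM in WT glycerol, against 0 and 3 reads in WT glucose, and its total RNA level was 719 and 613 RPM in WT glycerol, against 0 and 4 reads in WT glucose. In asc1-M1X, STL1 had 254 and 318 RPM of FP reads in glycerol, against 1 and 1 reads in glucose. The ratio of its FP RPM in WT between glycerol and glucose was 2688, with a counting interval from 920 to 13039, and in asc1-M1X it was 2505, with an interval from 693 to 20692.

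GUT1 and GUT2, by contrast, had RNA in glucose at levels well above the other genes, and GUT1 had few footprints there. GUT1 total RNA was 1049 and 799 RPM in WT glycerol, against 124 and 105 RPM in WT glucose, and its FP level was 951 and 727 RPM in WT glycerol, against 8.78 and 8.62 RPM in WT glucose. The log2 change of GUT1 in WT was 3.09 ± 0.14 (SE) in total RNA and 6.48 ± 0.19 in FP. GUT2 total RNA was 530 and 446 RPM in WT glycerol, against 71.7 and 70.6 RPM in WT glucose. Its FP level was 2660 and 2174 RPM in WT glycerol, against 32.2 and 31.6 RPM in WT glucose. The GUT2 changes were 2.86 ± 0.11 in total RNA and 6.13 ± 0.14 in FP, the smallest of the 10 in each kind of library.

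The genes of ethanol and acetate use included the one with the most reads per kilobase, ADH2. ADH2 total RNA was 15188 and 11477 RPM in WT glycerol, against 4.70 and 3.67 RPM in WT glucose. Its FP level was 32225 and 19788 RPM in WT glycerol, against 4.73 and 3.68 RPM in WT glucose. Per kilobase, ADH2 ranked 1 among all ORFs in both WT glycerol FP libraries and 1 or 2 in those of asc1-M1X. The log2 change of ADH2 in WT was 11.73 ± 0.27 in total RNA and 12.49 ± 0.34 in FP. Reads that also match ADH1, its near-identical paralog, were left out by the authors' counting of uniquely aligned reads, so the level of ADH2 is uncertain, and whether any of its few glucose reads came from ADH1 was not tested.

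ACS1 rose less in RNA than most of the set and by much more in footprints. Its total RNA was 1074 and 793 RPM in WT glycerol, against 8.74 and 9.75 RPM in WT glucose, a log2 change of 6.73 ± 0.19. Footprints of ACS1 were at 11735 and 8303 RPM in WT glycerol, against 5.27 and 4.25 RPM in WT glucose, a log2 change of 10.93 ± 0.29. JEN1, the lactate carrier, had changes in RNA and footprints that lay closer together. JEN1 total RNA was 1863 and 2164 RPM in WT glycerol, against 4.54 and 2.79 RPM in WT glucose, and its FP level was 1499 and 1831 RPM in WT glycerol, against 1.76 and 1.26 RPM in WT glucose. The log2 change of JEN1 was 9.22 ± 0.27 in total RNA, and in FP the fitted fold change was 1023, with a log2 SE of 0.26.

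The glyoxylate cycle genes behaved unlike each other in glucose. ICL1 total RNA was 3209 and 4683 RPM in WT glycerol, against 23.2 RPM in each of the WT glucose libraries, whereas MLS1 had 3288 and 4418 RPM in WT glycerol, against 8 and 10 reads in WT glucose. On ICL1 there were 6670 and 10939 RPM of footprints in WT glycerol, against 1.22 and 0.92 RPM in WT glucose. MLS1 had 3659 and 4917 RPM of FP reads in WT glycerol, against 2 and 2 reads in WT glucose. The fitted log2 changes in WT were 7.50 ± 0.32 (total RNA) and 12.89 ± 0.41 (FP) for ICL1, and 11.60 ± 0.44 (total RNA) and 13.89 ± 0.40 (FP) for MLS1.

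Of the genes for gluconeogenesis, FBP1 had the fewer reads in glucose and PCK1 the more footprints per kilobase in glycerol. PCK1 total RNA was 1531 and 2101 RPM in WT glycerol, against 9.41 and 7.85 RPM in WT glucose, and its FP level was 6666 and 9257 RPM in WT glycerol, against 1.62 and 1.95 RPM in WT glucose. FBP1 total RNA was 1408 and 1934 RPM in WT glycerol, against 3 and 2 reads in WT glucose. In FP it had 2183 and 2592 RPM in WT glycerol, against 0 and 1 reads in WT glucose. With so few reads the fitted change of FBP1 depends on the prior count. By RPM, its FP ratio between glycerol and glucose in WT was 39152 with a counting interval from 7027 to 1546470. The log2 change of PCK1 in WT was 7.81 ± 0.24 in total RNA and 11.99 ± 0.26 in FP.

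Per kilobase, the FP level in WT glycerol was highest for ADH2 (27175 ± 9190, SD, n = 2), followed by ICL1 (5558 ± 1906), PCK1 (5103 ± 1174) and ACS1 (4883 ± 1182), whose libraries overlap. MLS1 (2723 ± 565) and FBP1 (2494 ± 302) came next and overlap as well. GUT2 (1299 ± 185), JEN1 (946 ± 133), GUT1 (411 ± 77.5) and STL1 (307 ± 14.3) were the lowest, with no overlap between neighbours. In total RNA per kilobase the order was another, with ADH2 (13931 ± 2742) first and ICL1 (2491 ± 658) and MLS1 (2446 ± 508) next, whereas ACS1 (455 ± 96.8), GUT1 (453 ± 86.8) and STL1 (411 ± 46.5) could not be told apart and GUT2 was the lowest (263 ± 31.9).

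The size of the change depended on which glucose libraries of WT were set against glycerol, most of all for GUT2. With the WT libraries of the Ribo-Zero, polyA-tailed or deletion collection experiments in place of the main ones, every gene that could be compared was still called higher in total RNA. On those glucose libraries alone, few genes reached the minimum of reads. They were GUT1 and GUT2 (Ribo-Zero), GUT1 (polyA-tailed), and GUT1, ICL1, ACS1 and JEN1 (deletion collection). The others entered through their glycerol reads and could hardly have been tested without being called. STL1, with 0 reads in both Ribo-Zero WT libraries, gives no fold there. Over these choices of glucose library the log2 change in total RNA ranged from 2.66 to 6.53 for GUT2, from 6.66 to 9.48 for JEN1, from 3.09 to 4.17 for GUT1 and from 7.50 to 8.04 for ICL1. In FP the change ranged from 6.13 to 6.69 for GUT2, from 6.48 to 7.05 for GUT1 and from 12.89 to 13.83 for ICL1.

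Footprints rose more than RNA for part of the genes, which was tested as the change of translational efficiency (TE), the ratio of FP to total RNA RPM. In WT, 5 of the 10 genes were called higher in TE in glycerol (42.5% of all genes tested). These were ICL1 (log2 change 5.41 ± 0.59, adjusted p = 8.37e-07 in edgeR), ACS1 (4.23 ± 0.35, adjusted p = 4.92e-08), PCK1 (4.19 ± 0.41, adjusted p = 2.34e-07), GUT1 (3.41 ± 0.23, adjusted p = 6.53e-09) and GUT2 (3.30 ± 0.16, adjusted p = 4.3e-10). In asc1-M1X, 6 genes were called (37.5% of all genes), the same 5 with log2 changes from 2.51 ± 0.15 (GUT2) to 4.79 ± 0.33 (ACS1), and JEN1 at 3.51 ± 0.39 (adjusted p = 1.03e-06 from edgeR). Of the genes named, ICL1, PCK1 and JEN1 did not reach the minimum of FP reads on the glucose libraries. They entered the TE test through their glycerol reads. ACS1 reached the minimum only with the glucose libraries of both strains together, with 76 FP reads in WT and 96 in asc1-M1X. The counts of members called therefore describe these libraries and carry no further weight. Over all genes the median TE change was 0.19 in WT and −0.00096 in asc1-M1X. FP and total RNA of a number came from one extract. With the culture as a block, 8 genes were called in each strain: MLS1 (2.31, adjusted p = 0.00476 from edgeR), JEN1 (0.81, adjusted p = 0.0263) and ADH2 (0.76, adjusted p = 0.0407) in addition in WT, and MLS1 (1.99, adjusted p = 0.00284) and FBP1 (1.67, adjusted p = 0.0342) in addition in asc1-M1X. These additional genes entered through their glycerol reads too, since none of them reached the minimum in both kinds of library on the glucose libraries.

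As levels, the 5 genes called in WT stood above the median of all genes by TE in glycerol and below it in glucose. GUT1 had a TE of 0.908 in WT glycerol, with 65.3% of genes below it, against 0.0761 in WT glucose, with 2.55% of genes below it. ICL1 had a TE of 2.23 in WT glycerol, with 90.5% of genes below it, against 0.0461 in WT glucose, with 1.89% below it. The WT glucose value of ICL1 rests on 17 FP reads. ACS1 had the highest TE of the set in glycerol, at 10.7 with 99.7% of genes below it, against 0.515 in WT glucose, with 40.0% below it. The TE of PCK1 was 4.38 in WT glycerol, against 0.207 in WT glucose, where 29 FP reads lie behind it. GUT2 had a TE of 4.95 in WT glycerol, with 97.9% of genes below it, against 0.448 in WT glucose, with 33.1% below it. The cultures of a group were close to each other, at 0.906 and 0.911 for GUT1 and 10.9 and 10.5 for ACS1 in WT glycerol. The median TE of all genes was 0.661 in WT glycerol and 0.611 in WT glucose.

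**Figure D2:**
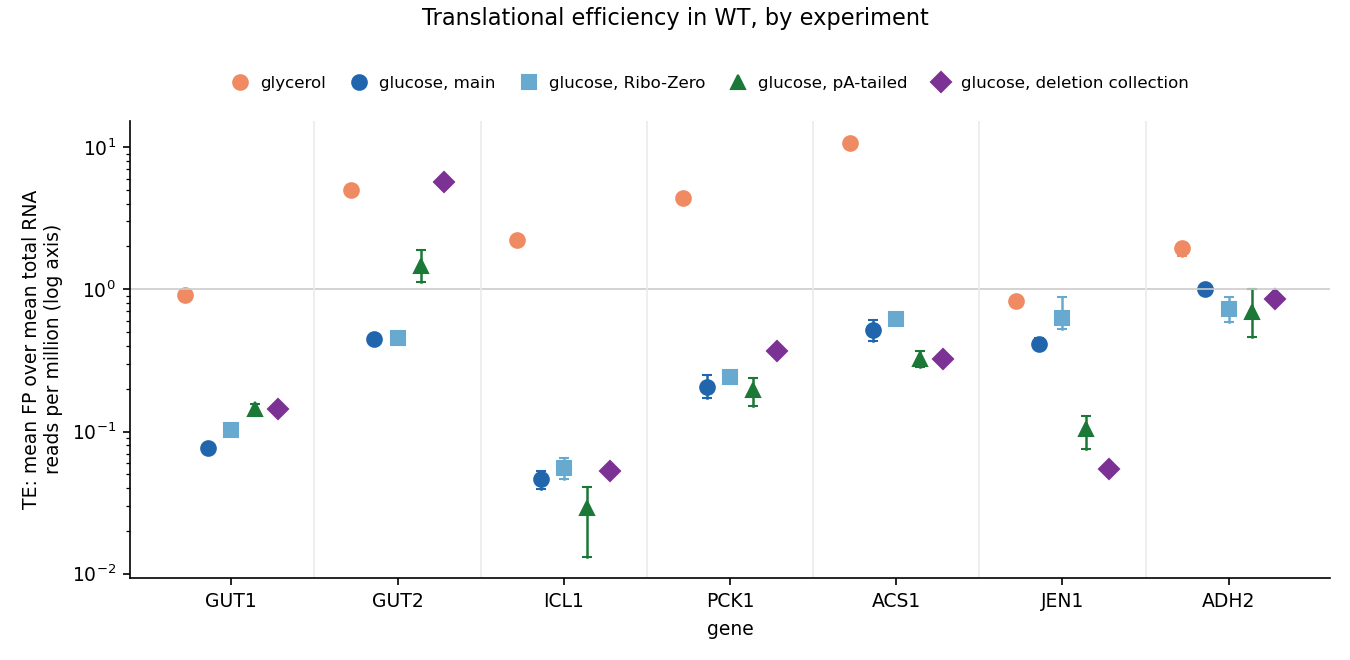
Translational efficiency (mean FP over mean total RNA RPM, log axis) of GUT1, GUT2, ICL1, PCK1, ACS1, JEN1 and ADH2, in WT in glycerol and in 4 sets of WT glucose libraries. Vertical lines join the values of the 2 cultures where their numbers are shared. GUT1, ICL1, PCK1 and ACS1 lie above each of the glucose values in glycerol, at 0.908, 2.23, 4.38 and 10.7, whereas GUT2 at 4.95 lies below its value of 5.64 in the deletion collection.

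For GUT2 the TE change rested on the glucose libraries chosen. Its total RNA in WT glucose was 71.7 and 70.6 RPM in the main experiment and 72.9 and 67.7 RPM with Ribo-Zero, but 20.8 and 16.9 RPM in the polyA-tailed experiment and 4.44 and 3.63 RPM in the deletion collection, whereas its FP level lay between 19.0 and 32.2 RPM in all WT glucose libraries. Its TE in WT glucose was therefore 0.448, 0.454, 1.46 and 5.64 in these experiments. Set against the deletion collection, the TE change of GUT2 was 0.14 (adjusted p = 0.747 from edgeR) and not called. The RNA selection, the reverse transcriptase and the WT strain differ between these experiments, and their part in the GUT2 values was not tested.

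GUT1, ICL1, PCK1 and ACS1 were called higher in TE in glycerol with every set of glucose libraries. ICL1 and PCK1 again had too few FP reads in glucose to enter the test without their glycerol reads. In the 3 other sets of WT libraries the same held for ACS1, with 40 total RNA reads (Ribo-Zero), 127 FP reads (deletion collection) and 45 FP reads (polyA-tailed). It also held for GUT1 in the polyA-tailed set, with 98 FP reads. With the Ribo-Zero glucose RNA as the reference, 6 genes were called in WT (37.9% of all genes), the same 5 and FBP1, and 7 in asc1-M1X (39.2% of all genes). With the deletion collection, 9 were called in WT (20.3% of all genes), and with the polyA-tailed libraries 9 (25.8% of all genes). On the glucose libraries alone, only GUT1 reached the minimum in both kinds of library in the deletion collection, with 161 FP and 619 total RNA reads. No member did in the polyA-tailed set, where GUT2 had 86 total RNA reads. The other members entered through their glycerol reads, so these counts describe the libraries and carry no further weight. The log2 TE change in WT ranged from 2.37 to 3.41 for GUT1, from 5.28 to 5.78 for ICL1, from 3.83 to 4.19 for PCK1 and from 4.13 to 5.36 for ACS1 over the 4 sets, and from 0.46 to 4.10 for JEN1. JEN1 had 7.36 and 9.19 RPM of total RNA in the polyA-tailed WT and 15.9 and 14.7 RPM in that of the deletion collection, above its level in the main WT.

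In the asc1-M1X mutant the genes of the set for glycerol use were lower than in WT in glycerol. The highly expressed genes of the glyoxylate cycle and gluconeogenesis did not move together. In total RNA, 5 of the 10 genes were called lower in asc1-M1X (8.48% of all genes tested were called lower), and in FP the same 5 (22.5% of all genes). With counts scaled by library size alone the shares of all genes called lower were 5.61% in total RNA and 15.5% in FP, and the same number of members were called lower. With TMM scaling no member was called higher in either.

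GUT1 fell furthest. Its total RNA was 352 and 376 RPM in asc1-M1X, against 1049 and 799 RPM in WT, and its FP level was 212 and 226 RPM in asc1-M1X, against 951 and 727 RPM in WT. The groups do not overlap in either kind of library, and the log2 change was −1.48 ± 0.18 in total RNA (adjusted p = 0.00035, edgeR) and −2.08 ± 0.16 in FP (adjusted p = 0.000561). For GUT2, the next enzyme, total RNA was 266 and 288 RPM in asc1-M1X, against 530 and 446 RPM in WT, and the FP level was 1191 and 1381 RPM in asc1-M1X, against 2660 and 2174 RPM in WT. The GUT2 changes were −0.95 ± 0.15 in total RNA (adjusted p = 0.00181, edgeR) and −1.06 ± 0.16 in FP (adjusted p = 0.00258). STL1 had 305 and 413 RPM of total RNA in asc1-M1X, against 719 and 613 RPM in WT, and 254 and 318 RPM of FP reads in asc1-M1X, against 481 and 514 RPM in WT. Its changes were −1.03 ± 0.17 (adjusted p = 0.00257, edgeR) in total RNA and −0.95 ± 0.13 (adjusted p = 0.00215) in FP. STL1, GUT1 and GUT2 are the genes of the set for glycerol uptake, phosphorylation and oxidation, and lower levels in the mutant were not particular to them.

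Outside glycerol use, ADH2 and FBP1 were also lower. ADH2 had 5720 and 5453 RPM of total RNA in asc1-M1X, against 15188 and 11477 RPM in WT, a log2 change of −1.38 ± 0.28 (adjusted p = 0.00665, edgeR). Its FP level was 15447 and 15857 RPM in asc1-M1X, against 32225 and 19788 RPM in WT, a change of −0.88 ± 0.25 (adjusted p = 0.026). FBP1 had 1064 and 810 RPM of total RNA in asc1-M1X, against 1408 and 1934 RPM in WT, a change of −0.97 ± 0.24 (adjusted p = 0.0165, edgeR), and 1101 and 928 RPM of FP reads in asc1-M1X, against 2183 and 2592 RPM in WT, a change of −1.38 ± 0.16 (adjusted p = 0.00136). The total RNA calls of ADH2 and FBP1 were lost without asc1-M1X replicate 2, at adjusted p = 0.0743 and 0.0986 from edgeR.

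The remaining 5 genes were not called. PCK1 was on the higher side in asc1-M1X in both kinds of library, with 2756 and 2574 RPM of total RNA in asc1-M1X, against 1531 and 2101 RPM in WT, and 11946 and 10526 RPM of FP reads in asc1-M1X, against 6666 and 9257 RPM in WT. Its groups do not overlap, but the log2 changes were 0.41 ± 0.23 in total RNA (adjusted p = 0.229, edgeR) and 0.36 ± 0.19 in FP (adjusted p = 0.175). With counts scaled by library size alone the total RNA change of PCK1 was 0.55 and called (adjusted p = 0.0458, edgeR), and without WT replicate 2 it was called in total RNA (0.70, adjusted p = 0.0449) and in FP (0.61, adjusted p = 0.0268). MLS1 stood at −0.43 ± 0.29 in total RNA (adjusted p = 0.321, edgeR) and −0.58 ± 0.22 in FP (adjusted p = 0.0773), and its FP change was called in DESeq2 (−0.57, adjusted p = 0.0195) and without asc1-M1X replicate 1 (−0.90, adjusted p = 0.00992, edgeR). Without WT replicate 1, MLS1 was called lower in both, at −0.67 in total RNA (adjusted p = 0.0496, edgeR) and −0.76 in FP (adjusted p = 0.0275). ICL1, ACS1 and JEN1 lay between −0.20 and 0.11 in both kinds of library, and the libraries of the strains overlapped for each of these genes in both.

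**Figure D3:**
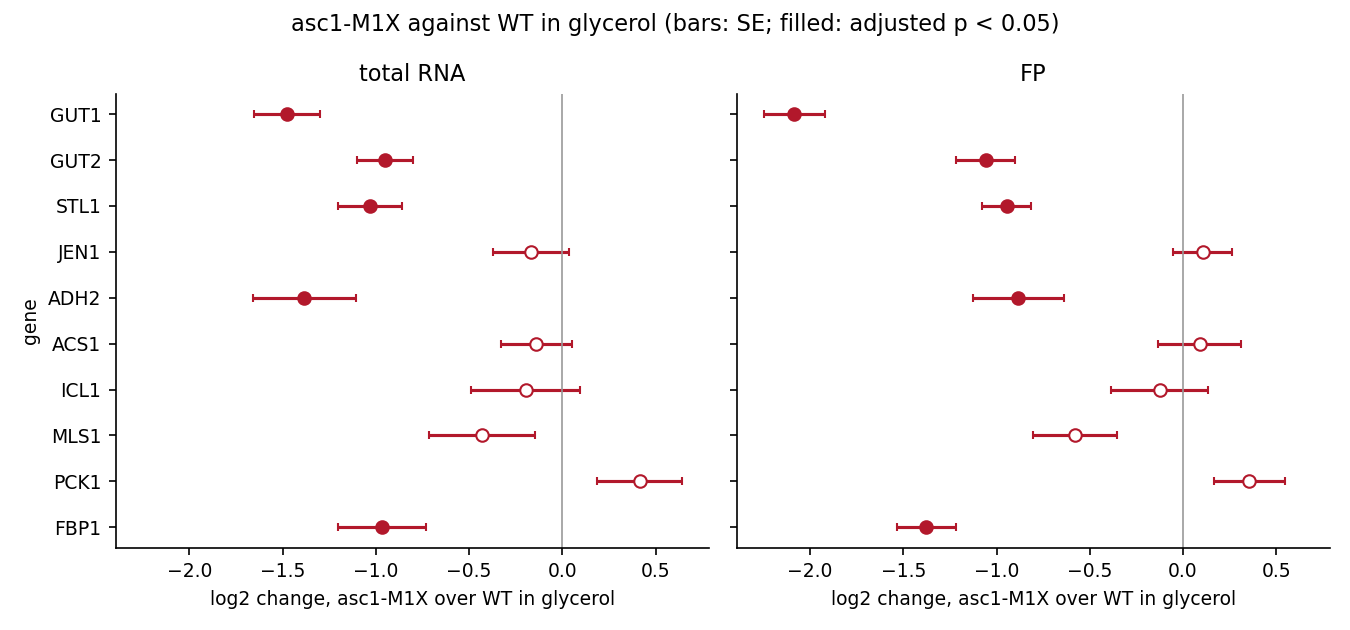
Log2 change between asc1-M1X and WT in glycerol for the 10 genes, in total RNA (left) and FP (right), from edgeR, with the SE as bars. Filled points are called at an adjusted p under 0.05: GUT1, GUT2, STL1, ADH2 and FBP1 lie to the left of 0 in both panels, from −0.95 to −1.48 in total RNA and from −0.88 to −2.08 in FP, and PCK1 lies to the right at 0.41 and 0.36 without a call.

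The TE of none of the 10 genes was called different between asc1-M1X and WT in glycerol by edgeR, where 0.0787% of all genes were called lower and 661 genes had an unadjusted p under 0.05; DESeq2 called 0 of the 10 as well. As values, GUT1 had a TE of 0.602 in asc1-M1X and 0.908 in WT, with the cultures at 0.602 and 0.602 in asc1-M1X and 0.906 and 0.911 in WT. The log2 change of GUT1 was −0.61 ± 0.23 (adjusted p = 0.33, edgeR), and with the culture as a block it was called (−0.61, adjusted p = 0.00159). ADH2 had a TE of 2.80 in asc1-M1X and 1.95 in WT. With the culture as a block ADH2 was called higher (0.54, adjusted p = 0.0222, edgeR). For the other 8 genes the log2 TE change lay between −0.41 (FBP1) and 0.27 (JEN1).

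Whether the response to the medium itself differed between the strains was tested as an interaction. In total RNA, 3 genes had a lower medium effect in asc1-M1X than in WT (7.33% of all genes). These were JEN1 (−2.61 ± 0.34 on the log2 scale, adjusted p = 0.000988, edgeR), GUT2 (−1.75 ± 0.14, adjusted p = 9.46e-05) and GUT1 (−1.44 ± 0.19, adjusted p = 0.00106). In FP, 2 genes did (20.2% of all genes), GUT2 (−2.49 ± 0.17, adjusted p = 2.14e-05, edgeR) and GUT1 (−1.71 ± 0.27, adjusted p = 0.00187). For GUT1 the strains did not pass the test in glucose (−0.06 ± 0.09 in total RNA and −0.44 ± 0.21 in FP) and the mutant was lower in glycerol. For GUT2 the mutant was above WT in glucose and below it in glycerol, and the FP change with the medium was 3.64 ± 0.12 in asc1-M1X and 6.13 ± 0.14 in WT.

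For JEN1 the strains differed in glucose RNA in the main experiment and were not called different in glycerol. Its total RNA was 24.5 and 16.9 RPM in asc1-M1X glucose, against 4.54 and 2.79 RPM in WT glucose, and its FP level was 2.07 and 0.946 RPM in asc1-M1X glucose, against 1.76 and 1.26 RPM in WT glucose. The FP levels overlap, with 26 reads in asc1-M1X and 24 in WT, too few for the FP test. The main WT glucose level of JEN1 RNA rests on 49 reads. In other WT glucose libraries it was 3.36 and 1.44 RPM (Ribo-Zero), 7.36 and 9.19 RPM (polyA-tailed) and 15.9 and 14.7 RPM (deletion collection). With Ribo-Zero, asc1-M1X had 10.7 and 12.8 RPM. How far the experiment sets the JEN1 level was not tested. ADH2 did not pass the test of the interaction in FP (−1.09 ± 0.43, adjusted p = 0.0892, edgeR) but did in DESeq2 (−1.06, adjusted p = 0.0119) and without WT glycerol replicate 2 (−1.39, adjusted p = 0.00343, edgeR). Without that replicate, ADH2 (−1.06, adjusted p = 0.043, edgeR) and ACS1 (−0.82, adjusted p = 0.0396) were called in total RNA too. No gene of the set had a called interaction in TE (0.692% of all genes were called lower; 762 genes had an unadjusted p under 0.05). JEN1 stood at 2.71 ± 0.68 (adjusted p = 0.0926, edgeR) and GUT2 at −0.79 ± 0.22 (adjusted p = 0.12). With the culture as a block both were called, JEN1 at 2.70 (adjusted p = 0.000557, edgeR) and GUT2 at −0.79 (adjusted p = 0.00405), and in DESeq2 JEN1 was called at 2.81 (adjusted p = 0.000706).

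In glucose, the residual footprints were the fewest on FBP1, STL1 and MLS1, with between 0 and 6 reads in each of the 22 glucose FP libraries of all strains. Per kilobase, the FP medians over these libraries were 0.657 for JEN1, 0.684 for ICL1, 1.33 for PCK1, 1.94 for ACS1, 3.30 for GUT1 and 4.98 for ADH2, and GUT2 stood apart at 18.6. All 22 libraries had more footprints per kilobase on GUT2 (10.2 or above) than any had on GUT1 (4.30 or below). In the 26 glucose total RNA libraries the medians per kilobase were 41.3 for GUT1, 38.9 for GUT2 and 12.9 for ICL1, those of ACS1, PCK1, ADH2 and JEN1 lay between 4.70 and 5.83, and those of FBP1, MLS1 and STL1 were 1.03, 0.99 and 0.289. As RPM, GUT1 total RNA ranged from 39.4 to 126, GUT2 from 2.26 to 150, ICL1 from 10.9 to 33.4 and JEN1 from 1.44 to 25.8. Genes of the lowest rank cannot be ordered, since a count of 0 allows up to 3 reads.

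In glucose, GUT2 was higher in both mutants without Asc1, in RNA and in footprints. GUT2 total RNA was 138 and 127 RPM in asc1-M1X and 149 and 133 RPM in asc1-Null, against 71.7 and 70.6 RPM in WT, and its FP level was 87.4 and 93.6 RPM in asc1-M1X and 95.6 and 98.8 RPM in asc1-Null, against 32.2 and 31.6 RPM in WT. The mutant and WT libraries do not overlap. In asc1-M1X the log2 change of GUT2 was 0.78 ± 0.07 in total RNA (adjusted p = 6.9e-05, edgeR) and 1.36 ± 0.08 in FP (adjusted p = 4.68e-08), and in asc1-Null it was 0.86 ± 0.09 (adjusted p = 0.000195) and 1.46 ± 0.08 (adjusted p = 2.9e-08). The Ribo-Zero libraries, made from the asc1-M1X and WT strains with another RNA selection, had 147 and 150 RPM in asc1-M1X, against 72.9 and 67.7 RPM in WT, a change of 0.99 ± 0.09 (adjusted p = 2.75e-24, edgeR). Both null mutants were compared with the same WT libraries of the main experiment.

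Other genes of the set were higher in RNA in the mutants without Asc1 and too low in footprints for a like test. In asc1-M1X total RNA, 4 of the 6 genes tested were called, all higher (37.2% of all genes were called in either direction, 982 of 5190 genes higher). In asc1-Null likewise 4 of 6 were called, all higher (32.6% of all genes in either direction, 906 of 5188 genes higher). Besides GUT2 these were JEN1, PCK1 and ACS1 in each. JEN1 and PCK1 entered these tests through the reads of the mutants, so the counts describe these libraries and carry no further weight. JEN1 had 25.8 and 21.1 RPM in asc1-Null, against 4.54 and 2.79 RPM in WT. Its log2 change was 2.42 ± 0.28 in asc1-M1X (adjusted p = 0.000191, edgeR) and 2.58 ± 0.24 in asc1-Null (adjusted p = 9.34e-05), and neither JEN1 nor PCK1 would have reached the minimum on the WT libraries alone. PCK1 had 17.9 and 15.4 RPM in asc1-M1X and 17.2 and 13.7 RPM in asc1-Null, against 9.41 and 7.85 RPM in WT. Its changes were 0.84 ± 0.18 (adjusted p = 0.00574, edgeR) in asc1-M1X and 0.71 ± 0.20 (adjusted p = 0.0214) in asc1-Null. In asc1-M1X the call was lost without asc1-M1X replicate 1 (adjusted p = 0.0669, edgeR), and in asc1-Null in DESeq2 (adjusted p = 0.081), without WT replicate 2 (adjusted p = 0.0768, edgeR) and without asc1-Null replicate 1 (adjusted p = 0.148). Its FP level was 2.53 and 2.60 RPM in asc1-M1X and 3.28 and 4.32 RPM in asc1-Null, against 1.62 and 1.95 RPM in WT, with 44, 68 and 29 reads behind them and no test. ACS1 had 14.7 and 14.3 RPM in asc1-M1X and 16.8 and 19.4 RPM in asc1-Null, against 8.74 and 9.75 RPM in WT. Its call in asc1-M1X (0.53 ± 0.17, adjusted p = 0.0342, edgeR) was lost in DESeq2 (adjusted p = 0.18) and without any single library of the comparison, and that in asc1-Null (0.84 ± 0.17, adjusted p = 0.00491) without asc1-Null replicate 2.

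In FP, 1 of the 4 genes tested was called in asc1-M1X (52.3% of all genes) and 2 of the 4 in asc1-Null (48.9% of all genes), GUT2 higher in each and GUT1 lower in asc1-Null. GUT1 had 7.01 and 6.70 RPM in asc1-Null, against 8.78 and 8.62 RPM in WT. Its change of −0.48 ± 0.18 (adjusted p = 0.0427, edgeR) was lost in DESeq2 (adjusted p = 0.239), under library size scaling and without any single library. In asc1-M1X, where GUT1 had 8.40 and 5.68 RPM, it was called lower with the replicate number as a block (−0.46, adjusted p = 0.039, edgeR) and without asc1-M1X replicate 1 (−0.75, adjusted p = 0.0163). In Ribo-Zero RNA, 2 of the 4 genes tested were called in asc1-M1X, both higher (37.6% of all genes), GUT2 and ACS1 (0.77 ± 0.27, adjusted p = 0.0155, edgeR). The ACS1 call was lost in DESeq2 (adjusted p = 0.219) and without WT replicate 1 (adjusted p = 0.0562, edgeR) or 2 (adjusted p = 0.13). JEN1 was below the minimum of reads there, with 10.7 and 12.8 RPM in asc1-M1X, against 3.36 and 1.44 RPM in WT. For TE in asc1-M1X glucose, 1 of 3 genes was called (20.2% of all genes), GUT2, with a TE of 0.685 in asc1-M1X, against 0.448 in WT (0.58 ± 0.11, adjusted p = 0.00347, edgeR). That call was lost without asc1-M1X replicate 2 (adjusted p = 0.0889).

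**Figure D4:**
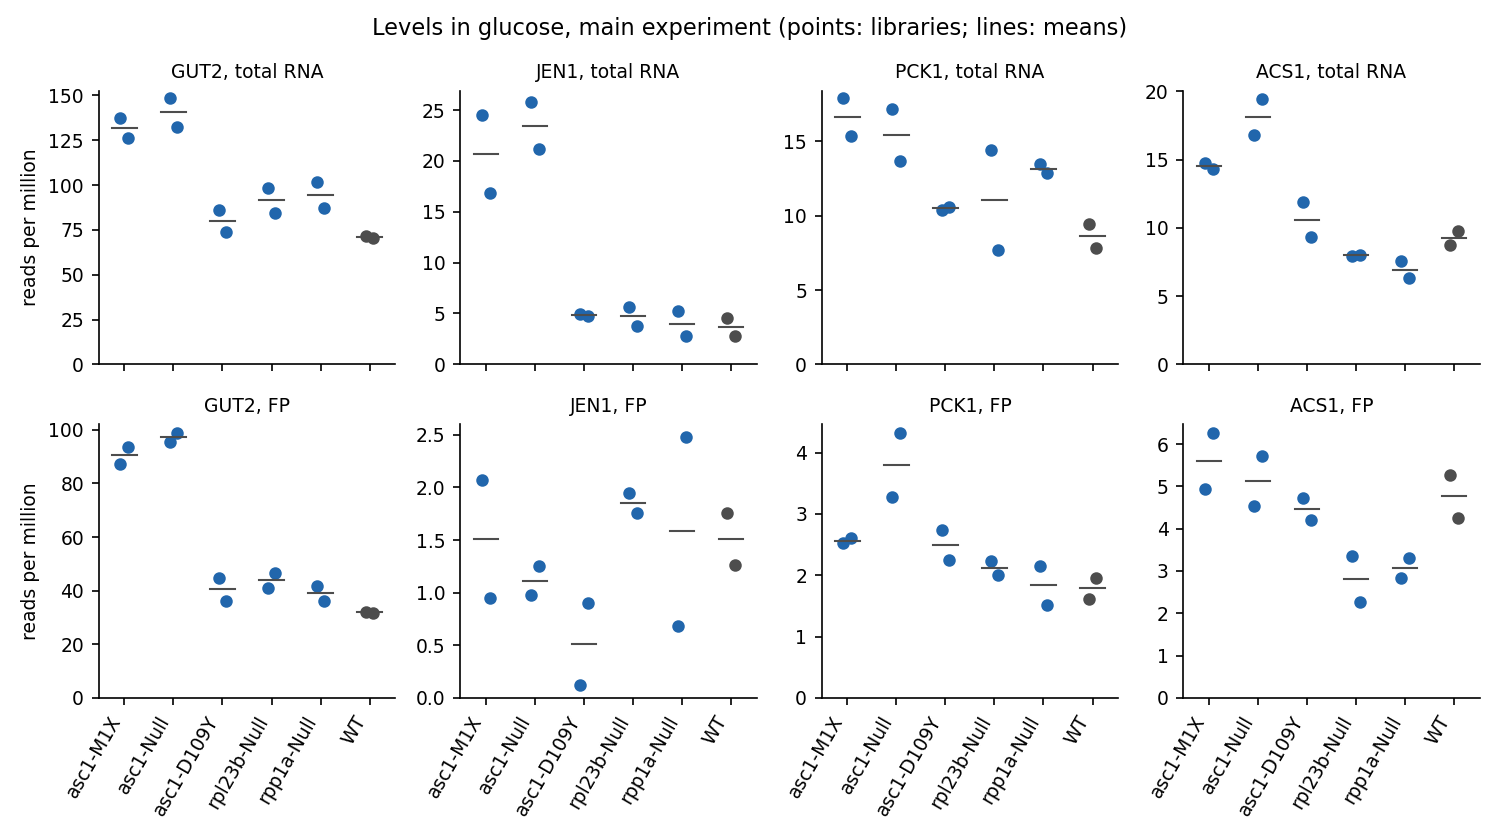
RPM of GUT2, JEN1, PCK1 and ACS1 in glucose in the 6 strains of the main experiment, in total RNA (top) and FP (bottom), with a point per library and a line at the mean of 2. GUT2 lies at 127 to 149 RPM of total RNA in asc1-M1X and asc1-Null, above the 70.6 to 101 RPM of the other 4 strains, and JEN1 is higher in both mutants in total RNA but not in FP.

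The strains with substitutions in Asc1 showed no called change in these genes. In asc1-D109Y, 0 of 5 genes were called in total RNA (0.35% of all genes, 286 of them at an unadjusted p under 0.05) and 0 of 3 in FP (0.963% of all genes, 419 unadjusted). DESeq2 also called 0 of them in both. GUT2 had 86.0 and 73.7 RPM of total RNA and 44.7 and 36.2 RPM of FP reads in asc1-D109Y, against 71.7 and 70.6 RPM of total RNA and 32.2 and 31.6 RPM of FP reads in WT. Its FP change of 0.33 ± 0.11 was not called (adjusted p = 0.292, edgeR) but was called without asc1-D109Y replicate 2 (0.48, adjusted p = 0.021). In asc1-DE, 0 of 3 genes were called in total RNA (0% of all genes, 22 of them unadjusted) and 0 of 3 in FP (0.0207% of all genes, 160 of them unadjusted), and 0 by DESeq2. GUT2 had 27.9 and 33.1 RPM of FP reads in asc1-DE, against 23.3 and 32.0 RPM in the WT of that experiment, and these overlap.

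In the strains lacking another ribosomal protein gene, few of the set were called. In rpl23b-Null, 0 of 5 genes were called in total RNA (24.2% of all genes, with 2012 at an unadjusted p under 0.05; DESeq2 called 0) and 2 of 4 in FP (49.4% of all genes), ACS1 lower (−0.89 ± 0.28, adjusted p = 0.0146, edgeR) and GUT2 higher (0.28 ± 0.11, adjusted p = 0.0382). Footprints of ACS1 were 3.34 and 2.26 RPM in rpl23b-Null, against 5.27 and 4.25 RPM in WT. Behind them lie 54 reads in rpl23b-Null and 76 in WT, and neither strain alone would have reached the minimum. In rpp1a-Null, 1 of 6 genes was called in total RNA (28.6% of all genes), ICL1 (0.41 ± 0.12, adjusted p = 0.034, edgeR), and 1 of 4 in FP (41.4% of all genes), ACS1 (−0.79 ± 0.27, adjusted p = 0.0454). ICL1 had 33.4 and 33.3 RPM in rpp1a-Null, against 23.2 RPM in each WT library, and ACS1 footprints were 2.84 and 3.31 RPM in rpp1a-Null, against the 5.27 and 4.25 RPM of WT. With 53 ACS1 footprint reads, rpp1a-Null alone would not have reached the minimum either. With the replicate number as a block, 4 of the 6 genes were called in rpp1a-Null total RNA, with GUT2 (0.28, adjusted p = 0.00557, edgeR) and PCK1 (0.51, adjusted p = 0.0397) higher and GUT1 lower (−0.16, adjusted p = 0.0418) besides ICL1. None of the 4 unblocked calls was made by DESeq2. The ICL1 call in rpp1a-Null was lost without any single library of the comparison (adjusted p from 0.105 to 0.14, edgeR), and that of GUT2 in rpl23b-Null without rpl23b-Null replicate 2 or either WT library. GUT2 total RNA was called higher in rpl23b-Null (0.35, adjusted p = 0.0279, edgeR) and rpp1a-Null (0.42, adjusted p = 0.0238) when replicate 2 of the mutant was left out.

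In the deletion collection the JEN1 and ICL1 RNA levels were somewhat higher in rps0b-Null. There 2 of 5 genes were called in total RNA (25.6% of all genes), ICL1 with 15.6 and 22.6 RPM in rps0b-Null, against 12.2 and 10.9 RPM in WT (0.72 ± 0.18, adjusted p = 0.00321, edgeR), and JEN1 with 19.0 and 22.7 RPM in rps0b-Null, against 15.9 and 14.7 RPM in WT (0.44 ± 0.16, adjusted p = 0.0352). Neither was called by DESeq2 or without rps0b-Null replicate 2, and JEN1 was not called without WT replicate b. In FP, 0 of 4 genes were called in rps0b-Null (19.4% of all genes, 1709 of 4935 at an unadjusted p under 0.05; DESeq2 called 0). GUT2 footprints were 28.3 and 36.2 RPM in rps0b-Null, against 19.0 and 26.5 RPM in WT, a change of 0.47 ± 0.17 (adjusted p = 0.0767, edgeR) that was called without WT replicate b (0.72, adjusted p = 0.000117). In rps16b-Null, 0 of 5 were called in total RNA (0.415% of all genes, 565 of them at an unadjusted p under 0.05) and 0 of 4 in FP (6.66% of all genes, 1225 unadjusted), and 0 by DESeq2 in each. GUT1 total RNA, at 71.2 and 46.1 RPM in rps16b-Null, against 43.6 and 41.2 RPM in WT, was called without rps16b-Null replicate 2 (0.65, adjusted p = 1.98e-05, edgeR), and GUT2 footprints without WT replicate b (0.46, adjusted p = 0.0147).

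The wider set of 30 other genes of glycerol, acetate, lactate and fatty acid derived carbon use gives the context of the medium change. In WT total RNA, 28 were tested, of which 18 rose in glycerol (42.8% of all genes did), 7 fell and 3 were not called, with a median log2 change of 2.27 beside −0.03 over all genes. In asc1-M1X 20 rose (42.1% of all genes), 5 fell and 3 were not called, with a median of 1.69 beside −0.03. In FP, 27 were tested, and in WT 21 rose (41.6% of all genes) and 5 fell, with a median of 3.72 beside 0.05, and in asc1-M1X 20 rose (41.1% of all genes) and 7 fell, with a median of 2.92 beside 0.04. This list was put together with earlier results of these data known. The largest rises among its members in WT total RNA were those of SFC1, the mitochondrial succinate-fumarate carrier (11.46 ± 0.43), and of ADY2 and ATO2, which belong to a family of acetate and ammonium transporters (10.16 ± 0.48 and 8.91 ± 0.34). The largest falls among them were those of GPD2 (−3.47 ± 0.14), a glycerol-3-phosphate dehydrogenase that makes glycerol, DLD3 (−2.91 ± 0.11), a cytosolic D-lactate dehydrogenase, and PYC2 (−2.57 ± 0.10), a pyruvate carboxylase. Between asc1-M1X and WT in glycerol, 10 of the 28 were lower in total RNA (8.48% of all genes) and 0 higher, with a median of −0.30 beside 0.01 over all genes, and in FP 14 of the 27 were lower (22.5% of all genes) and 2 higher, with a median of −0.53 beside −0.00015. In glucose the same genes were mixed, with 11 higher and 8 lower of 25 in asc1-M1X total RNA, where 37.2% of all genes were called in either direction, and 12 higher and 7 lower of 22 in FP, where 52.3% were.

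Paralogs of the members were measured in the same libraries. ADH1, the fermentative alcohol dehydrogenase, had 1803 ± 637 RPM of FP reads in WT glycerol (SD, n = 2), against 9259 ± 905 RPM in WT glucose, and 5735 ± 276 RPM in asc1-M1X glycerol, against 6911 ± 300 RPM in asc1-M1X glucose. ADH1 footprints in glycerol thus averaged more in asc1-M1X than in WT, whereas those of ADH2 were lower in asc1-M1X. ACS2, the acetyl-CoA synthetase used in glucose, had 402 ± 61.2 RPM of total RNA in WT glycerol, against 1593 ± 47.5 RPM in WT glucose. ICL2, a methylisocitrate lyase of the mitochondrial matrix, had 212 ± 11.7 RPM of total RNA in asc1-M1X glycerol, against 832 ± 11.1 RPM in WT glycerol. Its log2 change was −2.11 ± 0.16 in total RNA (adjusted p = 2.42e-05, edgeR) and −2.36 ± 0.13 in FP (adjusted p = 0.000174), beside the −0.20 and −0.13 of ICL1. DAL7, the second malate synthase, did not pass the test between media in WT total RNA (0.14 ± 0.13, adjusted p = 0.32, edgeR).

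The genes with the profile most like the mean of the set over the 15 total RNA groups were ADY2 (Pearson r = 0.995), RGI2 (0.995), EHD3 (0.993), KGD4 (0.993) and AGX1 (0.991). The r is taken on log2(RPM + 1) and rests on 2 glycerol and 13 glucose groups, which share WT strains and depth within an experiment. Of the members themselves, ICL1 followed the mean most closely (r = 0.992) and GUT2 least (r = 0.582).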

How the data were processed

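Ribosome footprints and total RNA of Sigma1278b yeast were sequenced, and 56 libraries (26 FP, 30 total RNA) of 62 samples were used; the authors had pooled the second preparations of 6 FP samples with the first. Per the study's methods, the authors aligned the reads with TopHat to the Sigma1278b genome and counted uniquely aligned reads per ORF, leaving out the first 30 codons. The deposited read counts were tested as they stand; the authors' scaled values, RPKM and fold changes were not used. After 19 mitochondrial genes were left out, 5525 to 5554 ORFs remained per table, of which 5560 of 5563 in all matched the R64 names. Depth was 5091809 to 15322986 reads (FP) and 1713047 to 8407876 reads (total RNA), and intervals cover counting error only.

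A gene was tested where its reads in the libraries of a type came to 128 or more, with edgeR 4.0.16 in R 4.3.3 (quasi-likelihood test, TMM scaling within a library type, Benjamini-Hochberg adjustment over all genes, threshold 0.05). TE was tested as the interaction of library type and group. DESeq2 1.42.0, other scalings and filters, replicate blocks, other glucose libraries and omission of each library were the alternatives. Tables used Python 3.11.15. Counts were simulated with the same dispersion for every gene, and with changes only in genes with over 200 expected reads summed over libraries. There, 198 of 200 genes changed by a log2 of 1 were recovered for total RNA between media in WT, with 9 false calls. For TE between strains in glycerol, 180 of 200 were recovered, with 9 false calls. The real spread of each gene was not simulated, so these shares do not give the power for the members. FP and total RNA of a culture deviated together (correlations 0.149 to 0.536, 4 pairs), as one extract gave both, and same-numbered glucose strains did so too (0.18 to 0.454, 10 pairs). Same-numbered strains in glycerol (0.00712 to 0.221, 2 pairs) and media (−0.158 to 0.0187, 4 pairs) were not taken as pairs. With 2 libraries a group, p-values measure the spread between these libraries.

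All members are named; of the 30 other genes, those with the 3 largest rises and falls in WT total RNA, and the paralogs, are named. The members, the gene list and the tests were chosen with earlier results of these data known. Promoter and protein sequences were not used here.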

Additional observations from a re-analysis of the deposited data

Results flagged for a closer look

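The response to the medium differed between asc1-M1X and WT, by an interaction term in edgeR, for 3 of the 10 genes in total RNA, where 7.33% of all genes were called in this direction, and for 2 of the 10 in FP, where 20.2% were, so that the FP count is at the level of all genes. In total RNA the medium effect in asc1-M1X minus that in WT was −1.44 ± 0.19 on the log2 scale for GUT1 (adjusted p = 0.00106), −1.75 ± 0.14 for GUT2 (adjusted p = 9.46e-05) and −2.61 ± 0.34 for JEN1 (adjusted p = 0.000988). In FP it was −1.71 ± 0.27 for GUT1 (adjusted p = 0.00187) and −2.49 ± 0.17 for GUT2 (adjusted p = 2.14e-05). In each test both libraries of each strain moved the same way with the medium, by less in asc1-M1X. The 2 media come from 2 experiments, and the experiment is common to both strains. JEN1 had 49 total RNA reads in the WT glucose libraries used. Its RNA level was higher in the polyA-tailed and deletion collection WT.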

How the results depend on the processing

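Of 2277 values of single genes under the alternatives set out at the start, 2189 kept their side of the threshold, 39 lost a call and 49 gained one. Of called values, 0 reversed. Among the 2189, 67 values that were uncalled changed sign. Of 108 values under alternatives chosen after seeing the data (other glucose libraries as the reference, crossed numbers), 1 lost a call and 11 gained one. The cause of these changes was not tested.

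The number of the 10 genes called changed by more than 1.5 times as follows. Library size scaling gave 1 in rpl23b-Null and 3 in rpp1a-Null total RNA, and 1 each in asc1-Null and rps0b-Null FP. DESeq2 gave 0 in rpp1a-Null and rps0b-Null total RNA, 0 in rpl23b-Null and rpp1a-Null FP, 1 in asc1-Null FP, 1 in the asc1-M1X Ribo-Zero comparison and 1 for the TE interaction. With 10 reads in every library, 5 of 5 genes left were called between media in FP in each strain. With no filter, 2 were called for TE in asc1-M1X glucose. For the TE change between media in WT, 9 were called with the deletion collection and 9 with the polyA-tailed libraries, where most genes entered through their glycerol reads. With the replicate block, 4 were called in rpp1a-Null total RNA, 2 in asc1-M1X glucose FP, 8 for the TE change between media in WT, 2 for the TE interaction and 2 for TE between strains in glycerol. Between asc1-M1X and WT in glycerol, where the numbers were not taken as pairs, the replicate block gave 5 genes in total RNA and 6 in FP (MLS1 in addition, −0.59, adjusted p = 0.0133, edgeR); other blocked counts stayed within 1.5 times.

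Leaving out 1 library at a time gave 10 genes between media in both kinds of library, 3 to 5 for the total RNA interaction, 2 to 3 for the FP interaction, 3 to 6 (total RNA) and 5 to 6 (FP) between asc1-M1X and WT in glycerol, 2 to 3 (total RNA), 1 to 2 (FP) and 0 to 1 (TE) between them in glucose, 1 in the Ribo-Zero comparison, 3 to 4 (total RNA) and 1 (FP) in asc1-Null, 0 to 2 in rps0b-Null total RNA, and 0 to 1 in asc1-D109Y FP, rps0b-Null FP and in both kinds of library of rpl23b-Null, rpp1a-Null and rps16b-Null. Library size scaling moved the median of all genes by over 0.1 (log2) in 14 of 30 comparisons, by −0.0844 to 0.255, and size factors by median ratio in 1 of 30. Under it the genes higher and lower in asc1-M1X in glycerol were 916 and 296 in total RNA (518 and 447 with TMM) and 1506 and 792 in FP (960 and 1155 with TMM), those in asc1-M1X in glucose 1666 and 450 in total RNA (982 and 949) and 2002 and 767 in FP (1332 and 1263), and the genes with a higher and lower medium effect in asc1-M1X 485 and 762 in FP (373 and 1049). Depth limits FBP1, STL1 and MLS1 in glucose, ADH2 there in total RNA, and ICL1, JEN1 and PCK1 there in FP. On the main WT glucose libraries alone it also limits ACS1 and ADH2 in FP, and JEN1 and PCK1 in total RNA.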
